A study of Mus musculus with 15 samples.

Results

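The first 12 hours of culture of mouse dental mesenchymal cells (mDMCs) were described from 5 of the 15 RNA-seq libraries of the series. These were the 3 libraries of freshly isolated cells (0 h) and the 2 libraries of cells after 12 h in culture, chosen by the time point in their labels and by no measured value. The cells of both groups came from the molar tooth germs of ICR mouse embryos at embryonic day 14.5. The mesenchyme of the mandibular first molar was separated from its epithelium with an enzyme, dissociated with trypsin, passed through a sieve and, for the 12 h group, plated in DMEM with fetal bovine serum (FBS). No gene was altered in either group, and no drug was given beyond the penicillin and streptomycin of the culture medium. The groups differ both in time and in attachment, medium, serum and these antibiotics, which cannot be told apart here. The labels do not say whether libraries of one group came from separate litters or cultures, so p-values measure the spread between these libraries, which may be technical. A further library of dental mesenchyme, labelled as tissue, has no replicate, and its scores are given beside the others without a test.

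Dental mesenchyme at this stage derives from cranial neural crest and condenses around the growing epithelial bud, with which it exchanges BMP, FGF, Wnt and hedgehog signals. Transcription factors such as Msx1, Pax9, Lhx6, Lhx8 and Barx1 mark it, and its capacity to direct tooth formation is called odontogenic potential. Plating places such cells on a stiff surface in serum, which in fibroblasts is known to switch on actin genes through serum response factor and the coactivators Yap and Taz.

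The values are scores, whole numbers that the authors had brought to one distribution in all libraries. Every library has a median of 721 and a highest score of 127101, held by 10 transcripts. The read depth is unknown, a change in the total RNA of a cell cannot be seen, and a transcript at the highest score may have changed by more than its scores show. Identical scores in replicate libraries arise from shared ranks, so the spread of such a transcript is understated. The scores are not per length, so genes are not ranked by level, and the library median is used only to mark a transcript as present. Of the dental mesenchyme list, 19 of 39 members lay above that median in all 5 libraries, among them Msx1, Pax9, Lhx6, Lhx8, Barx1, Dlx1, Prrx1 and Twist1, so markers of the labelled cell type were present at both times.

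Differences are log2(score + 1) at 12 h minus 0 h, with the standard error (SE) and the Benjamini-Hochberg adjusted p of a limma fit over the 14 mDMC libraries. "Rose" and "fell" are used for an adjusted p below 0.05. Over all transcripts 58.2% passed this test, 29.9% upwards and 28.3% downwards, and 24.1% also passed a fold of 2, 12.1% upwards and 12% downwards. The counts of each gene list below are read against these shares. The scores of the 0 h and 12 h libraries did not overlap for 66.3% of all transcripts, and for the genes given with values below they did not overlap unless stated.

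In all, 2906 of 12079 transcripts changed by over 2-fold, 1462 upwards and 1444 downwards, and in 2874 of them the libraries of the groups did not overlap. Rises and falls by over 4-fold were similar in number, 543 and 511. Among larger changes rises outnumbered falls, with 131 against 97 over 16-fold and 68 against 47 over 32-fold. The median change over all transcripts was 0.02 on the log2 scale. Pearson's r between log2 scores, given as a description across transcripts, was 0.97 to 0.98 among the 0 h libraries, 0.98 between the 12 h libraries and 0.81 to 0.82 between the groups. In the next 12 h, from 12 h to 24 h, 2.41% of the transcripts changed by over 2-fold, 171 (1.42%) upwards and 120 (0.993%) downwards. A fit of only the 5 libraries of these times gave 81 upwards and 26 downwards.

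**Figure D1:**
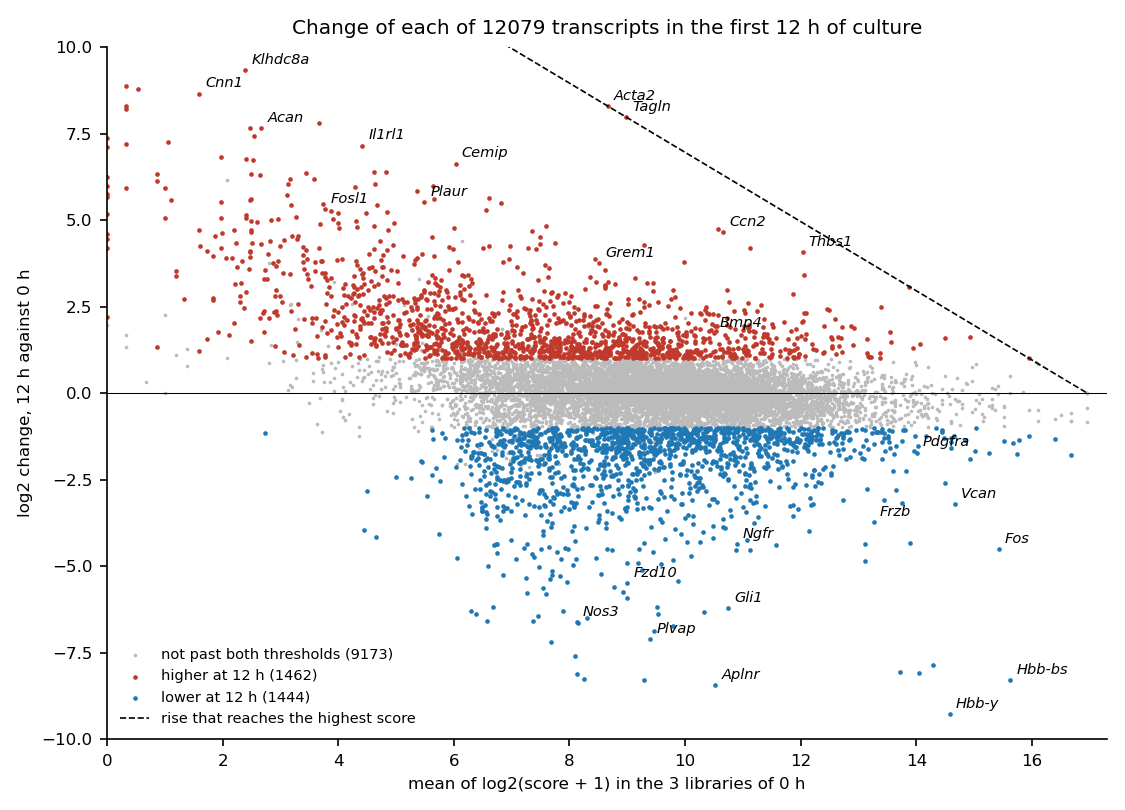
Each point is 1 of the 12079 transcripts, with the mean of log2(score + 1) in the 3 libraries of 0 h on the horizontal axis and the log2 change at 12 h on the vertical axis. Red points (1462) rose and blue points (1444) fell by over 2-fold at an adjusted p below 0.05, grey points (9173) did not pass both, and the dashed line marks the rise at which a transcript reaches the highest score. Acta2 and Tagln lie on that line, and the largest falls are globin and endothelial genes.

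The 12 largest rises among transcripts without a score of 0 were those of Klhdc8a, Cnn1, Acta2, Tagln, Actg2, Acan, Ptprn, Il1rl1, Adamtsl5, Slpi, Krt79 and Cemip, with log2 changes from 9.32 to 6.63. They span contractile proteins (Cnn1, Acta2, Tagln, Actg2), the cartilage proteoglycan aggrecan (Acan), the interleukin 33 receptor (Il1rl1), a secreted inhibitor of leukocyte proteases (Slpi) and a hyaluronan-degrading protein (Cemip). Klhdc8a, a kelch-domain protein, had scores of 5, 5 and 3 at 0 h and 3357 and 3357 at 12 h, and rose by 9.32 on the log2 scale (SE 0.20, adjusted p = 7.0e-12). Cemip had scores of 73, 65 and 56 at 0 h and 6473 and 6473 at 12 h, and rose by 6.63 on the log2 scale (SE 0.19, adjusted p = 7.1e-11). Slpi had scores of 4, 5 and 4 at 0 h and 547 and 615 at 12 h. In these 3 genes both 12 h libraries were far above all 0 h libraries, and the tissue scored 2, 74 and 6, near the 0 h level. The equal 12 h scores of Klhdc8a and Cemip are shared ranks, so their spread is understated. The 12 largest falls, again among transcripts without a score of 0, were those of 5 globin genes (Hbb-y, Hbb-bs, Hbb-bt, Hba-a2 and Hba-a1) and of Aplnr, Plvap, Rasip1, Pcdh12, Bcl6b, Nos3 and Dll4, all of them known from endothelium, with log2 changes from -9.29 to -6.45.

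Red cell, endothelial and pericyte transcripts were present at 0 h and lower after 12 h. In bulk samples fewer cells of a type and less RNA per cell cannot be told apart. All 10 red cell markers fell by over 2-fold, and their summed score went from 98497, 151535 and 143890 at 0 h to 376 and 459 at 12 h, 0.318% of the earlier mean. Hbb-y, an embryonic globin, had scores of 18558, 19258 and 40680 at 0 h and 33 and 44 at 12 h, and fell by 9.29 on the log2 scale (SE 0.67, adjusted p = 2.2e-07). Slc4a1, the anion exchanger of red cells, had scores of 179, 324 and 370 at 0 h and was listed at 0 in both 12 h libraries, as was the embryonic globin Hba-x. The summed red cell score of the tissue, 136290, lay within the range of 0 h, although its Hbb-y score of 6425 lay below every 0 h library.

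Of the 13 endothelial markers, 12 fell by over 2-fold and 1 rose, and their summed score went from 12583, 14588 and 12264 to 3058 and 2694. Plvap, a protein of endothelial fenestrae, had scores of 653, 767 and 615 at 0 h and 5 and 3 at 12 h, and fell by 7.11 on the log2 scale (SE 0.52, adjusted p = 2.2e-07). Tie1, an endothelial receptor kinase, had scores of 1148, 1439 and 1282 at 0 h and 16 and 14 at 12 h, and Cldn5, a tight junction protein of vessels, 688, 745 and 468 at 0 h and 0 and 3 at 12 h. The member that rose was Flt1, a receptor for vascular endothelial growth factor that is not restricted to endothelium, with scores of 677, 795 and 912 at 0 h and 1840 and 1575 at 12 h (log2 change 1.11, SE 0.28, adjusted p = 0.0045), and it was not counted over 2-fold without 0 h replicate 1 or 12 h replicate 1. Every endothelial marker other than Flt1 was lower in both 12 h libraries than in any 0 h library. Among 6 pericyte markers 5 fell, 4 of them by over 2-fold. Rgs5, a regulator of G protein signalling in mural cells, had scores of 1908, 2515 and 2308 at 0 h and 90 and 101 at 12 h (log2 change -4.53, SE 0.25, adjusted p = 2.2e-08), while Cspg4, the NG2 proteoglycan, had 1201, 1170 and 1360 at 0 h and 1756 and 1446 at 12 h and did not pass the test (log2 change 0.36, SE 0.19, adjusted p = 0.12).

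Markers of other cells moved less. Of 9 macrophage and leukocyte markers 6 fell, 4 of them by over 2-fold, and Lyz2, the lysozyme of macrophages, rose from 113, 192 and 126 to 409 and 514 (log2 change 1.71, SE 0.50, adjusted p = 0.011), though not without 12 h replicate 2 (adjusted p = 0.069). Without replicate 2 of either group 3 macrophage markers fell. Among 7 glial and neuronal markers Tubb3 and Stmn2, which encode a beta tubulin and a tubulin-binding protein of neurons, rose by over 2-fold, and S100b, a glial calcium-binding protein, fell. Of 7 skeletal muscle markers Des and Acta1 rose, and Acta1 did not pass without 0 h replicate 3 (adjusted p = 0.098) or without either 12 h library (adjusted p = 0.11 and 0.088). With a filter of 1 ppm in all 5 libraries 0 skeletal muscle markers rose and 0 glial and neuronal markers fell. Dental epithelium markers set 1 library apart: the summed score of the 12 members was 30163 in 0 h replicate 1, but 3318 and 3802 in the other 0 h libraries and 4716 and 5189 at 12 h.

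**Figure D2:**
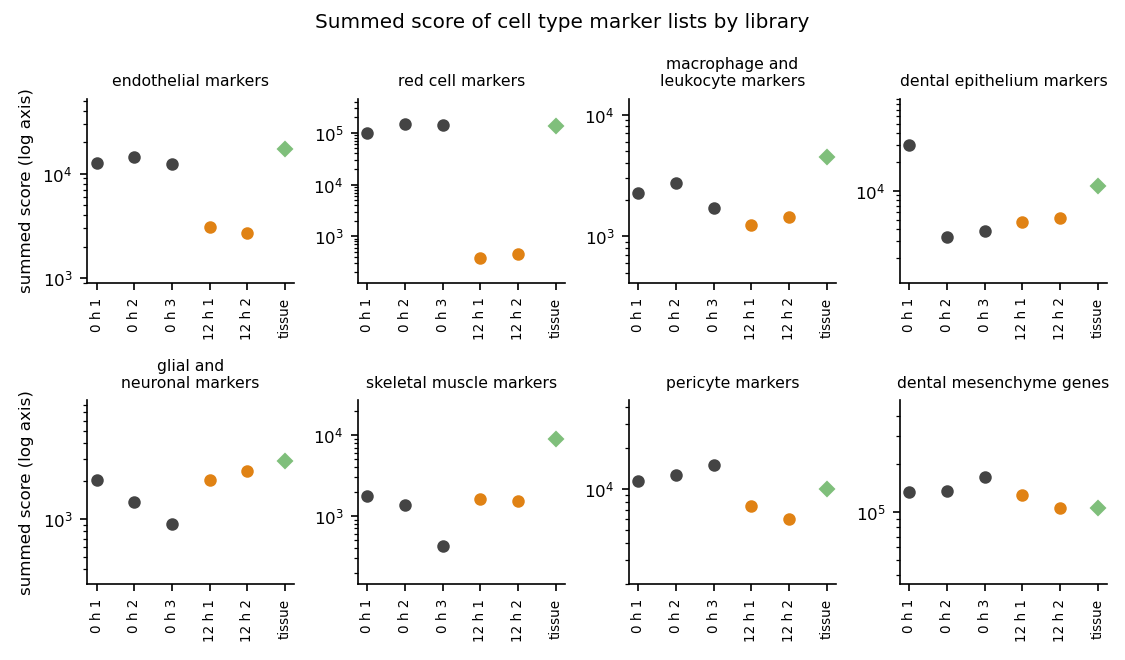
Each panel gives the summed score of a marker list in each library on a log axis, with 0 h libraries in grey, 12 h libraries in orange and the tissue as a green diamond. Red cell sums lie between 98497 and 151535 at 0 h and at 376 and 459 at 12 h, and the dental epithelium sum is highest, at 30163, in 0 h replicate 1.

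Immediate early genes encode transcription factors and feedback proteins that cells switch on within minutes of a stimulus, among them Fos, Jun and Egr1. Of 32 measured members 14 fell by over 2-fold and 4 rose (median log2 change -0.32). Fos had scores of 16498, 40642 and 127101 at 0 h and 1863 and 2027 at 12 h, and fell by 4.50 on the log2 scale (SE 0.58, adjusted p = 2.9e-05). Fosb, its paralog, had scores of 2671, 5269 and 6623 at 0 h and 262 and 305 at 12 h, and Socs3, an inhibitor of cytokine signalling, 3076, 6074 and 5711 at 0 h and 476 and 552 at 12 h. The falls were large, but the 0 h libraries were far apart: 32 of 32 members had their lowest 0 h score in replicate 1 and 31 of 32 their highest in replicate 3. The summed score was 68407, 146179 and 282797 at 0 h, 62404 and 60576 at 12 h and 117669 in the tissue, so the 12 h libraries differed little from each other and lay nearest to 0 h replicate 1.

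The balance of rises and falls depended on which 0 h library was used, while 12 or more members fell by over 2-fold with any of them left out. Without 0 h replicate 3, 9 members rose and 12 fell by over 2-fold (median 0.08), and without 0 h replicate 1, 2 rose and 16 fell (median -0.88). In the fit of the 5 libraries of 0 h and 12 h, 3 rose and 11 fell by over 2-fold. The median was -0.42 without 12 h replicate 1 and -0.18 without 12 h replicate 2. Fos, Fosb, Jun, Junb and Jund were lower than every 0 h library in both 12 h libraries. A single AP-1 member moved strongly the other way. Fosl1 (chr19:5447547-5455946, plus strand, 4 exons), which encodes the Fos family member Fra-1, had scores of 10, 11 and 18 at 0 h and 701 and 416 at 12 h, and rose by 5.32 on the log2 scale (SE 0.34, adjusted p = 8.7e-08). Its tissue score was 26, and it was no higher than 18 in any 0 h library.

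**Figure D3:**
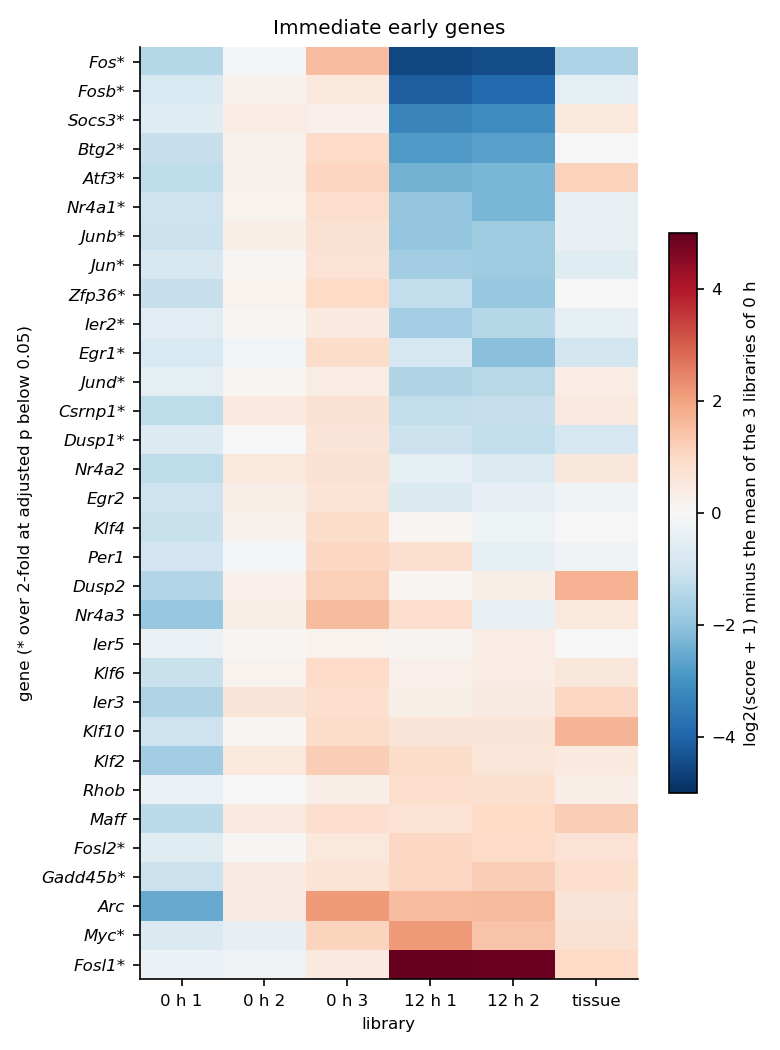
Colours show log2(score + 1) of each of 32 immediate early genes minus its mean over the 3 libraries of 0 h, from blue (lower) to red (higher), in the 5 libraries and the tissue. The 0 h replicate 1 column is blue and the 0 h replicate 3 column red almost throughout, and at 12 h Fos is lowest and Fosl1 highest.

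The actin cytoskeleton and focal adhesion list moved the furthest upwards of the 46 lists. Of 53 members 50 rose and 44 rose by over 2-fold, against 12.1% of all transcripts, with a median log2 change of 1.76. Acta2 (chr19:34241090-34255590, minus strand, 9 exons), the alpha actin of smooth muscle, had scores of 543, 403 and 304 at 0 h and 127101 and 127101 at 12 h, and rose by 8.29 on the log2 scale (SE 0.18, adjusted p = 7.0e-12). Tagln, an actin-binding protein of smooth muscle, had scores of 486, 545 and 486 at 0 h and 127101 and 127101 at 12 h. Both sat at the highest score at 12 h, so their rises are limited by the scale. Cnn1, calponin of smooth muscle, had scores of 2, 2 and 2 at 0 h and 1181 and 1232 at 12 h, and Actg2, the gamma actin of smooth muscle, 11, 12 and 12 at 0 h and 2911 and 2763 at 12 h. The tissue, with 1678 for Acta2 and 834 for Tagln, lay above every 0 h library and far below 12 h. The member that fell was Pxn, the adhesion scaffold paxillin, with scores of 1524, 1552 and 1617 at 0 h and 976 and 949 at 12 h (log2 change -0.70, SE 0.11, adjusted p = 0.00017). Beside these genes the summed score of the 6 pericyte markers was 11515 to 14931 at 0 h and 7484 and 5995 at 12 h, and that of the 7 skeletal muscle markers 429 to 1773 and then 1628 and 1547. Neither sum was above all 0 h libraries at 12 h, and no marker of either list was at 0.

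Known targets of Yap with TEAD factors, which respond to cell shape and stiffness, rose as well. Of 24 members 17 rose, 16 of them by over 2-fold, and 3 fell by less than 2-fold (median 1.19 on the log2 scale). Without 0 h replicate 3, 1 fell by over 2-fold. Ccn2, a matricellular protein once called CTGF, had scores of 1204, 1672 and 2109 at 0 h and 40642 and 40642 at 12 h, and rose by 4.65 on the log2 scale (SE 0.31, adjusted p = 1.2e-07). Ankrd1, a nuclear ankyrin repeat protein, had scores of 4, 4 and 6 at 0 h and 169 and 182 at 12 h (log2 change 4.98, SE 0.33, adjusted p = 1.0e-07). Nuak2, a kinase that promotes contractility, had scores of 24, 21 and 24 at 0 h and 296 and 305 at 12 h. In all 3 genes both 12 h libraries were far above the tissue, which scored 1433, 23 and 33. F3, the coagulation starter tissue factor, had scores of 80, 142 and 172 at 0 h and 2320 and 2463 at 12 h (log2 change 4.25, SE 0.25, adjusted p = 3.4e-08). Among integrins and cadherins 17 of 34 members rose and 7 fell, and without 12 h replicate 1 the number that rose was 11. Itga7 and Itga3, laminin-binding integrin chains, rose, Itga7 from 30, 33 and 13 to 402 and 473 and Itga3 from 453, 132 and 149 to 1635 and 1515. Itga2, a collagen-binding chain, fell, as did Cdh5, the cadherin of endothelium, from 1005, 1116 and 1610 to 81 and 46.

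Matrix proteases and their inhibitors, which set how much of the matrix around a cell is cut, changed in both directions. Of 35 matrix proteases and inhibitors 15 rose and 9 fell by over 2-fold (median log2 change 0.35). With a filter of 1 ppm in all 5 libraries, which leaves out members near 0 in either group, 10 of 28 rose and 8 fell (median -0.15). Plaur, the urokinase receptor, had scores of 32, 53 and 50 at 0 h and 1884 and 2239 at 12 h, and rose by 5.51 on the log2 scale (SE 0.28, adjusted p = 1.0e-08). Mmp3, the protease stromelysin, had scores of 6, 8 and 11 at 0 h and 344 and 447 at 12 h (log2 change 5.43, SE 0.55, adjusted p = 3.8e-06). Serpinb2, an inhibitor of plasminogen activators, had scores of 4, 10 and 11 at 0 h and 538 and 620 at 12 h. Mmp10, a second stromelysin, was listed at 0 in all 0 h libraries and had 49 and 56 at 12 h. In the other direction Mmp15, a membrane-bound protease, went from 817, 1081 and 931 to 27 and 16 (log2 change -5.43, SE 0.41, adjusted p = 2.9e-07). So the secreted and cell-surface plasmin and stromelysin genes named here were higher in both 12 h libraries, and the membrane protease was lower in both.

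The extracellular matrix list went mainly downwards. Of 57 members 19 fell and 8 rose by over 2-fold, with a median log2 change of -0.36. Vcan, the large proteoglycan versican of embryonic mesenchyme, had scores of 20924, 23247 and 36428 at 0 h and 3520 and 2275 at 12 h, and fell by 3.20 on the log2 scale (SE 0.24, adjusted p = 2.7e-07). Against this, Thbs1, the adhesion-modulating glycoprotein thrombospondin-1, had scores of 4290, 4048 and 4238 at 0 h and 70508 and 70508 at 12 h (log2 change 4.07, SE 0.10, adjusted p = 2.0e-11). Acan had scores of 3, 7 and 7 at 0 h and 1582 and 1027 at 12 h and Mfap5, a microfibril protein, 7, 6 and 2 at 0 h and 87 and 79 at 12 h. Tissue scores of 15128 for Vcan, 5191 for Thbs1 and 11 for Acan lay on the side of 0 h.

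Promoters of 3 of these genes are shown as examples. Each gene rose by over 16-fold and its promoter holds AP-1 letters, the sequence read by dimers of Fos and Jun family proteins. Among the named genes Mmp10 and Lif also meet both conditions and are not shown. The sequences are the 250 bases before the annotated start in RefSeq (GRCm38.p6), read 5′ to 3′ along the gene, with TGANTCA on either strand in capitals.
F3 (chr3:121723287-121723536, plus strand): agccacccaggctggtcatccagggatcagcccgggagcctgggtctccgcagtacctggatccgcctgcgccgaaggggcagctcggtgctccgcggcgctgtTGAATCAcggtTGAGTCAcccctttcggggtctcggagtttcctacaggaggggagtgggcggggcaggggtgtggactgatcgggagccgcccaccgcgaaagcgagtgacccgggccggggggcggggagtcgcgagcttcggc
Mmp3 (chr9:7445572-7445821, plus strand): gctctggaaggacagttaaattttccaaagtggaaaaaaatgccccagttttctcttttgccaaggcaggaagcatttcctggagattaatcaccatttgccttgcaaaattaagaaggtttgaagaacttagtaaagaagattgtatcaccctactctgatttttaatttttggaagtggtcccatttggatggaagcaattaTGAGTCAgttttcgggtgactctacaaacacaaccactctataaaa
Plaur (chr7:24462233-24462482, plus strand): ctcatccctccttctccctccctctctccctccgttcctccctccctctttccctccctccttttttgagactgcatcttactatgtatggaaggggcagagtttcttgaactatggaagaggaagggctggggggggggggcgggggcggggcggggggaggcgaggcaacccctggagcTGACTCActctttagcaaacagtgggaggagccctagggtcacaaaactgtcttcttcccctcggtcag
The AP-1 letters begin 146 and 135 bases before the start in F3, 46 bases before it in Mmp3 and 69 bases before it in Plaur. GGAATG, the letters read by TEAD factors, begins 210 and 123 bases before the start in Ankrd1, which is among the rises of the Yap target list.

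The same search was made in all genes with 1 promoter window, 7352 of the genes tested. AP-1 letters stood in 7.27% of the 839 promoters of genes that rose by over 2-fold, in 3.25% of the 831 of genes that fell and in 3.56% of all those tested, and in 6.96% of all 22862 promoters of the reference. TEAD letters stood in 12.8%, 10.8%, 10.4% and 12.6% of the same sets. The CArG box, bound by serum response factor and added to the search after the values were seen, stood in 2.5%, 0.842%, 1.16% and 1.38%. Within lists, AP-1 letters stood in 4 of 20 promoters of the matrix proteases and inhibitors (Mmp3, Mmp10, Mmp13 and Plaur), TEAD letters in 8 of 15 promoters of the Yap target list, which was drawn up from known TEAD targets, and the CArG box in 6 of 36 promoters of the actin list. Gli letters, GACCACCCA, stood in 0 of the promoters of genes that rose or fell and in 0.177% of those tested. On these windows the letters of AP-1 were more frequent among genes that rose than among genes that fell or all tested, and about as frequent as in the whole reference. A match describes these letters and is no measured binding site.

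Growth factors and cytokines rose in larger shares than transcripts in general. Of 32 growth factors for other cells 16 rose and 6 fell by over 2-fold (median log2 change 0.92), and of 29 cytokine, chemokine and NF-kB genes 13 rose and 4 fell (median 0.86). Ereg, the EGF receptor ligand epiregulin, had scores of 4, 14 and 11 at 0 h and 324 and 329 at 12 h, and rose by 5.08 on the log2 scale (SE 0.39, adjusted p = 3.2e-07). Areg, the related ligand amphiregulin, had scores of 3, 6 and 5 at 0 h and 77 and 115 at 12 h. Lif, a cytokine that signals through gp130, had scores of 1, 0 and 4 at 0 h and 116 and 91 at 12 h, 1 of its 0 h libraries being at 0. All 3 were near the floor of the scale at 0 h and in the tissue. Pgf, placental growth factor, fell from 349, 320 and 305 to 35 and 29. Part of these counts came from members near 0 at 0 h, which a filter of 1 ppm in all 5 libraries leaves untested. With it 10 of 26 growth factors rose and 6 fell by over 2-fold (median 0.39). Of 21 cytokine, chemokine and NF-kB genes 7 then rose and 3 fell (median 0.51).

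Among the cytokine group Il1rl1 had scores of 16, 18 and 29 at 0 h and 2715 and 3362 at 12 h, and rose by 7.15 on the log2 scale (SE 0.53, adjusted p = 2.4e-07). Tnfrsf12a, the receptor of the cytokine TWEAK, had scores of 112, 204 and 314 at 0 h and 4957 and 6074 at 12 h (log2 change 4.82, SE 0.33, adjusted p = 1.3e-07). Tslp, an epithelial-type cytokine, had scores of 2, 3 and 4 at 0 h and 71 and 71 at 12 h. Receptor and ligand genes thus stood among the rises of this group. In the TGF-beta and activin pathway 7 of 26 members rose and 3 fell by over 2-fold, and 5 fell without 12 h replicate 1. Ltbp2, which binds microfibrils, had scores of 65, 168 and 81 at 0 h and 5044 and 4618 at 12 h (log2 change 5.64, SE 0.30, adjusted p = 1.7e-08). Inhbb and Inhba, activin subunits, rose, Inhbb from 6, 4 and 9 to 127 and 169 and Inhba from 707, 1220 and 1803 to 4241 and 3101. Inhba did not pass without 0 h replicate 1 (adjusted p = 0.067) or 12 h replicate 1 (adjusted p = 0.11). Tgfbr3, the coreceptor betaglycan, fell from 905, 1191 and 1358 to 243 and 198. In FGF signalling 4 of 23 members rose and 3 fell by over 2-fold. The ligand Fgf7 had scores of 158, 210 and 203 at 0 h and 2258 and 2742 at 12 h (log2 change 3.71, SE 0.25, adjusted p = 1.1e-07), the feedback phosphatase Dusp4 189, 387 and 451 at 0 h and 1256 and 1296 at 12 h and the feedback inhibitor Spry2 611, 671 and 906 at 0 h and 1886 and 2161 at 12 h. A ligand and 2 inhibitors of its signal were thus all higher in both 12 h libraries.

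Dental mesenchyme genes changed in both directions. Of 39 members 18 fell and 10 rose, 12 and 8 of them by over 2-fold, with a median log2 change of -0.32. Without 12 h replicate 1, 5 rose, 3 of them by over 2-fold, and without 0 h replicate 1, 3 rose by over 2-fold. Among the transcription factors Msx1 changed little, with scores of 5030, 5205 and 5473 at 0 h and 4338 and 4373 at 12 h (log2 change -0.26, SE 0.09, adjusted p = 0.024), and it did not pass without 0 h replicate 3 (adjusted p = 0.06) or without either 12 h library (adjusted p = 0.088 and 0.074). Pax9 (chr12:56691767-56712707, plus strand, 5 exons) had scores of 3850, 4049 and 5959 at 0 h and 2177 and 1525 at 12 h, and fell by 1.31 on the log2 scale (SE 0.25, adjusted p = 0.00064). Lhx6 had scores of 3675, 3537 and 4933 at 0 h and 1950 and 1868 at 12 h (log2 change -1.07, SE 0.12, adjusted p = 9.9e-06). Pax9 and Lhx6 were below every 0 h library at 12 h.

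Larger falls were seen in Osr2, an odd-skipped factor of the palate and the lingual side of the molar, with scores of 700, 900 and 1413 at 0 h and 261 and 132 at 12 h (log2 change -2.37, SE 0.32, adjusted p = 3.8e-05), and in Twist2, with 411, 516 and 547 at 0 h and 127 and 133 at 12 h (log2 change -1.90, SE 0.16, adjusted p = 8.7e-07). Tfap2b fell from 1828, 2339 and 4601 to 1158 and 578, Lef1, the partner of beta-catenin, from 570, 531 and 1178 to 306 and 169, and Alx4 from 385, 218 and 173 to 82 and 60. Without 12 h replicate 2 neither Tfap2b (adjusted p = 0.052) nor Lef1 (adjusted p = 0.053) passed. Barx1, Foxf1, Six2 and Twist1 fell by 0.57, 1.15, 0.84 and 0.32 on the log2 scale, Twist1 not without 12 h replicate 1 (adjusted p = 0.053). Lhx8 fell by 0.30 (adjusted p = 0.049), from 3304, 3391 and 3945 to 2647 and 3106, and it did not pass without 12 h replicate 1 (adjusted p = 0.32), without 0 h replicate 3 (adjusted p = 0.15) or without 0 h replicate 2 (adjusted p = 0.062).

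Other factors rose or did not pass. Msx2 rose from 69, 148 and 163 to 276 and 342 (log2 change 1.37, SE 0.36, adjusted p = 0.0055), and Dlx2 from 324, 376 and 751 to 1255 and 850 (log2 change 1.19, SE 0.33, adjusted p = 0.0078), a rise that did not pass without 12 h replicate 1 (adjusted p = 0.089). Snai1 and Snai2, repressors of epithelial genes, rose by 2.68 and 1.04, and neither passed without 12 h replicate 1 (adjusted p = 0.081 and 0.20). The scores of Snai2 overlapped between the groups, and it also missed the threshold without 0 h replicate 1 (adjusted p = 0.066) or 2 (adjusted p = 0.069). Dlx5 overlapped as well, from 52, 31 and 91 to 240 and 78 (log2 change 1.36, SE 0.55, adjusted p = 0.048), and did not pass without 12 h replicate 1 (adjusted p = 0.48), 0 h replicate 1 (adjusted p = 0.084) or 0 h replicate 2 (adjusted p = 0.16). Prrx2 rose from 1807, 2166 and 2491 to 3403 and 3531, though not without 12 h replicate 2 (adjusted p = 0.062). For Dlx1, Dlx3, Dlx6, Runx2, Alx1, Prrx1, Osr1, Foxf2, Eya1 and Sox9 the adjusted p lay between 0.071 and 0.94. Runx2, the master factor of bone and an early tooth factor, had 1245, 1380 and 3327 at 0 h and 1420 and 730 at 12 h, and 0 h replicate 3 was the highest. The groups overlapped in Runx2, Prrx1, Osr1, Foxf2, Eya1 and Sox9.

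Surface and secreted members also changed in both directions. Ngfr, the low-affinity neurotrophin receptor of neural crest cells, had scores of 1839, 2032 and 1828 at 0 h and 72 and 115 at 12 h, and fell by 4.37 on the log2 scale (SE 0.25, adjusted p = 2.7e-08). Pdgfra, a receptor of mesenchymal cells, had scores of 16448, 16448 and 16448 at 0 h and 5100 and 4885 at 12 h (log2 change -1.72, SE 0.09, adjusted p = 1.1e-08), its equal 0 h scores being a shared rank. Cd44, the hyaluronan receptor, had scores of 904, 983 and 1004 at 0 h and 6326 and 4347 at 12 h (log2 change 2.44, SE 0.16, adjusted p = 8.3e-08). Ngfr and Pdgfra were thus lower and Cd44 higher in both 12 h libraries, and the tissue scores of 1562, 14316 and 1571 lay nearer to 0 h. The ligand Fgf3 had scores of 197, 519 and 204 at 0 h and 13 and 6 at 12 h (log2 change -4.80, SE 0.79, adjusted p = 0.0002), while Fgf10 had 572, 649 and 633 at 0 h and 970 and 867 at 12 h (log2 change 0.57, SE 0.12, adjusted p = 0.001). Syndecan-1 (Sdc1), a proteoglycan of condensing dental mesenchyme, fell by 1.01, and tenascin C (Tnc) fell by 0.85, the latter not without 0 h replicate 3 (adjusted p = 0.058) or 12 h replicate 2 (adjusted p = 0.098).

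**Figure D4:**
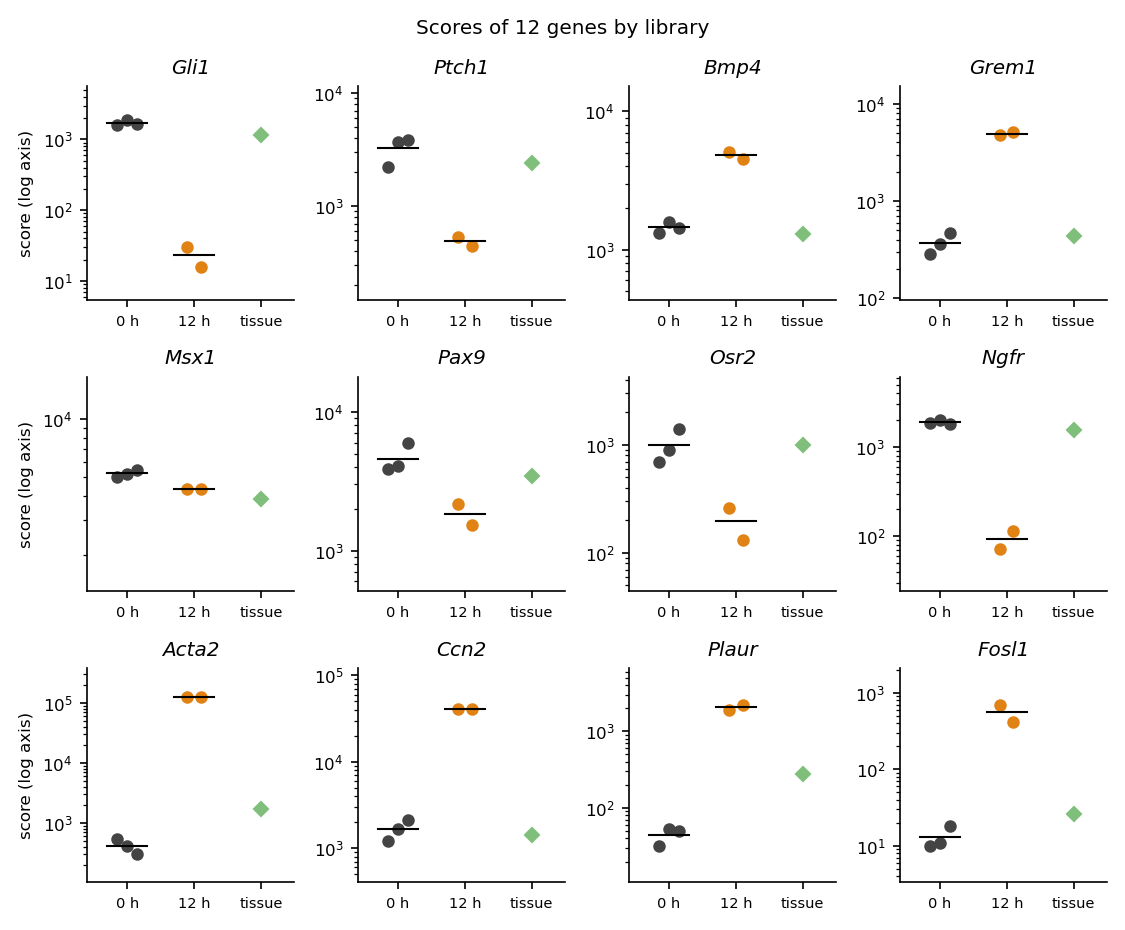
Scores of 12 genes on log axes, with 0 h libraries as grey points, 12 h libraries as orange points, group means as bars and the single tissue library as a green diamond. Gli1 lies at 1608 to 1888 at 0 h and at 30 and 16 at 12 h, Msx1 between 4338 and 5473 in all 5 libraries, and Acta2 at 304 to 543 at 0 h and at 127101 in both 12 h libraries.

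BMP signalling genes changed in both directions. Of 31 members 10 rose and 9 fell by over 2-fold, against 12.1% and 12% of all transcripts. The ligand Bmp4 (dental mesenchyme is a known source of it) had scores of 1326, 1580 and 1436 at 0 h and 5074 and 4515 at 12 h, and rose by 1.73 on the log2 scale (SE 0.14, adjusted p = 4.7e-07). The ligand Bmp7 had scores of 350, 200 and 170 at 0 h and 6 and 4 at 12 h (log2 change -5.28, SE 0.77, adjusted p = 7.7e-05). Bmp4 thus rose where Bmp7 fell, without overlap in either. Secreted BMP antagonists also went both ways. Grem1 had scores of 286, 359 and 465 at 0 h and 4739 and 5066 at 12 h (log2 change 3.75, SE 0.23, adjusted p = 5.0e-08), and Nog, which encodes noggin, 35, 52 and 138 at 0 h and 1839 and 1699 at 12 h (log2 change 4.78, SE 0.39, adjusted p = 5.6e-07). Chrd, which encodes chordin, had scores of 256, 276 and 281 at 0 h and 33 and 22 at 12 h (log2 change -3.28, SE 0.59, adjusted p = 0.00043). The tissue scored 1285 for Bmp4, 438 for Grem1 and 172 for Nog, nearer to 0 h in each.

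Hedgehog target genes fell. Hedgehog ligand from the dental epithelium releases Smo from the receptor Ptch1, and Gli1, Ptch1 and Hhip are transcribed in response. Gli1 (chr10:127329882-127341974, minus strand, 13 exons) had scores of 1608, 1888 and 1650 at 0 h and 30 and 16 at 12 h, and fell by 6.22 on the log2 scale (SE 0.59, adjusted p = 1.9e-06). Ptch1 had scores of 2235, 3681 and 3848 at 0 h and 536 and 440 at 12 h (log2 change -2.70, SE 0.20, adjusted p = 2.3e-07). Hhip, a decoy receptor for the ligand, fell from 170, 342 and 230 to 103 and 74 and did not pass without 12 h replicate 2 (adjusted p = 0.061). Of the 13 members 4 fell and 0 rose by over 2-fold, and in these 3 targets the tissue (1158, 2397 and 293) lay within or near the 0 h scores. Disp1, which releases the ligand from producing cells, rose by 0.47 (adjusted p = 0.037), but not without 12 h replicate 1 (adjusted p = 0.30), 0 h replicate 1 (adjusted p = 0.083) or 0 h replicate 2 (adjusted p = 0.11). The epithelial marker sum beside this result was 30163, 3318 and 3802 at 0 h and 4716 and 5189 at 12 h, and its part in it was not tested.

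Wnt pathway members fell more often than they rose. Of 51 members 17 fell and 5 rose by over 2-fold, with a median log2 change of -0.27, and 3 rose without 12 h replicate 1. The receptor Fzd10 had scores of 467, 573 and 492 at 0 h and 9 and 12 at 12 h, and fell by 5.48 on the log2 scale (SE 0.28, adjusted p = 1.3e-08). Frzb, a secreted Wnt antagonist, had scores of 8743, 10453 and 10453 at 0 h and 735 and 750 at 12 h (log2 change -3.73, SE 0.16, adjusted p = 2.1e-09), and Notum, an enzyme that inactivates Wnt ligands, 70, 175 and 87 at 0 h and 3 and 5 at 12 h. Lgr5, a receptor of R-spondins, had scores of 480, 425 and 530 at 0 h and 42 and 33 at 12 h (log2 change -3.64, SE 0.27, adjusted p = 2.3e-07). So a receptor, a coreceptor and 2 inhibitors of the pathway were all lower in both 12 h libraries. Rnf43, a ligase that removes Frizzled receptors, rose from 88, 8 and 15 to 145 and 102 (log2 change 2.39, SE 0.70, adjusted p = 0.011), and it did not pass without 12 h replicate 1 (adjusted p = 0.074).

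In the Notch pathway 7 of 18 members fell and 3 rose by over 2-fold, and 1 rose without 0 h replicate 1. With the filter of 1 ppm in all 14 libraries 13 members were tested, of which 2 fell and 3 rose, and the median log2 change went from -0.13 to 0.43. The members with the largest falls, Dll4, Notch4, Mfng and Nrarp, include genes known from endothelium. Dll4, a ligand, had scores of 113, 229 and 203 at 0 h and 1 and 1 at 12 h, and Notch4, a receptor, 397, 482 and 438 at 0 h and 7 and 9 at 12 h. Mfng, a glycosyltransferase that modifies Notch, had 90, 129 and 73 at 0 h and was listed at 0 in both 12 h libraries. The 12 of 13 endothelial markers that fell stand beside these values, and their part in them was not tested. Lfng, a related glycosyltransferase, rose from 182, 71 and 41 to 413 and 425 (log2 change 2.35, SE 0.41, adjusted p = 0.00033).

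In the list of skeletal development and mineralization 5 of 29 members rose and 6 fell by over 2-fold. Tnfrsf11b, which encodes osteoprotegerin, a decoy receptor that restrains osteoclasts, had scores of 84, 137 and 69 at 0 h and 3536 and 3840 at 12 h, and rose by 5.30 on the log2 scale (SE 0.31, adjusted p = 3.4e-08). Dmp1, a matrix protein of dentin and bone, had scores of 21, 24 and 17 at 0 h and 249 and 222 at 12 h (log2 change 3.46, SE 0.50, adjusted p = 7.2e-05), and its score fell again by 2.16 on the log2 scale from 12 h to 24 h (adjusted p = 0.02). Of the 24 imprinted and IGF genes 8 fell and 2 rose by over 2-fold, and 4 rose without 0 h replicate 3. Igfbp5 fell from 10466, 5224 and 5721 to 1026 and 623, and Mest, an imprinted gene of embryonic mesoderm, from 23306, 25128 and 20997 to 4264 and 3404. Igfbp6, an IGF2-binding protein, had scores of 6, 6 and 4 at 0 h and 448 and 537 at 12 h (log2 change 6.30, SE 0.30, adjusted p = 6.7e-09). Binding proteins of the IGF system thus went opposite ways. Axon guidance genes had 21 of 45 members down and 6 up by over 2-fold, with a median log2 change of -0.65. Sema3g fell from 350, 543 and 227 to 9 and 16, Sema7a from 369, 620 and 339 to 38 and 37 and the ephrin Efnb3 from 1497, 1386 and 1486 to 194 and 156, while Sema3c rose from 539, 395 and 290 to 1869 and 1983. Without 12 h replicate 1, 3 axon guidance members rose by over 2-fold.

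**Figure D5:**
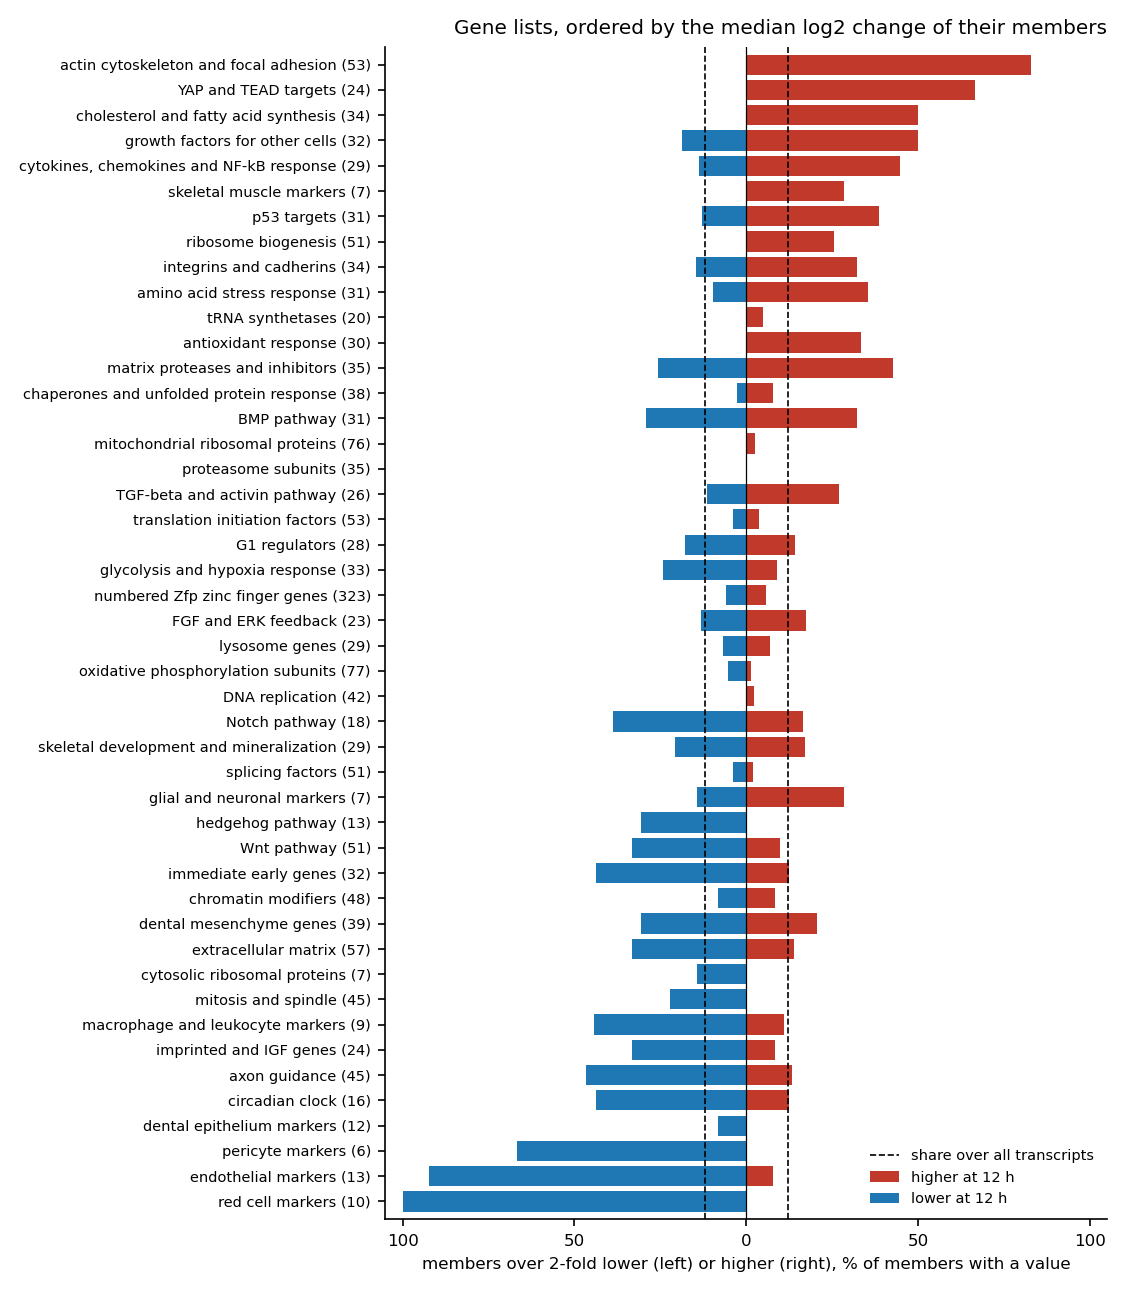
For each of 46 gene lists, with the number of members that have a value in brackets, bars give the percentage of members over 2-fold higher (red, right) or lower (blue, left) at 12 h at an adjusted p below 0.05, and dashed lines give the shares over all transcripts, 12.1% and 12%. Actin cytoskeleton genes (44 of 53 higher) stand at the top and red cell markers (10 of 10 lower) at the bottom.

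Of 45 mitosis and spindle genes 30 fell, 10 of them by over 2-fold, and 1 rose (2 without 0 h replicate 1), with a median log2 change of -0.56. Top2a, the topoisomerase that untangles chromosomes, had scores of 36409, 28843 and 28843 at 0 h and 7414 and 9415 at 12 h, and fell by 1.90 on the log2 scale (SE 0.15, adjusted p = 3.5e-07). Bub1b, a spindle checkpoint kinase, had scores of 4420, 4125 and 3210 at 0 h and 1313 and 1692 at 12 h (log2 change -1.38, SE 0.19, adjusted p = 3.9e-05), and Kif23, a motor of cytokinesis, 1270, 1353 and 1206 at 0 h and 519 and 501 at 12 h. Anln, an actin-binding protein of the cleavage furrow, was the member that rose, from 2018, 2170 and 1755 to 3027 and 2910. DNA replication genes moved by less: of 42 members 12 fell and 6 rose, 1 by over 2-fold, and 5 fell without 12 h replicate 1 and 7 in the fit of the 5 libraries. The member over 2-fold was Orc1, a subunit of the origin recognition complex, with scores of 93, 91 and 117 at 0 h and 426 and 421 at 12 h (log2 change 2.08, SE 0.14, adjusted p = 1.1e-07).

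From 12 h to 24 h Top2a rose by 0.89 and Kif23 by 0.98 on the log2 scale (adjusted p = 0.004 and 0.006). Of 28 regulators of the G1 phase 8 rose and 8 fell, 4 and 5 of them by over 2-fold, with a median log2 change of 0.05. Cdkn1a, the p53-induced inhibitor p21, had scores of 16, 17 and 39 at 0 h and 484 and 289 at 12 h, and rose by 4.02 on the log2 scale (SE 0.31, adjusted p = 3.1e-07). Cdkn2b, the inhibitor p15, had scores of 8, 4 and 1 at 0 h and 66 and 66 at 12 h and E2f7, a repressor of E2F targets, 216, 222 and 269 at 0 h and 1327 and 794 at 12 h. These 3, which act against entry into or passage through the cycle, were higher in both 12 h libraries, in a list with as many falls as rises. E2f2, an activator, fell from 320, 398 and 403 to 41 and 66. Of 31 p53 targets 12 rose and 4 fell by over 2-fold (median log2 change 0.74). Bbc3, the cell death gene Puma, rose from 13, 52 and 76 to 177 and 233, while Btg2, which is also an immediate early gene, fell from 4065, 10466 and 17403 to 1253 and 1375 and had its highest score in 0 h replicate 3.

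Most genes of cholesterol and fatty acid synthesis rose. Of 34 cholesterol and fatty acid synthesis genes 24 rose, 17 of them by over 2-fold, and 1 fell, with a median log2 change of 1.02. Idi1, an isomerase of the isoprenoid steps, had scores of 1819, 2421 and 2467 at 0 h and 6497 and 9215 at 12 h, and rose by 1.80 on the log2 scale (SE 0.25, adjusted p = 4.9e-05). Nsdhl, a later sterol enzyme, had scores of 485, 315 and 367 at 0 h and 1161 and 1262 at 12 h (log2 change 1.66, SE 0.22, adjusted p = 3.4e-05). Hsd17b7, another sterol enzyme, had scores of 802, 833 and 942 at 0 h and 2428 and 2428 at 12 h. The member that fell was Scd2, a fatty acid desaturase, from 28882, 23247 and 23247 to 14408 and 12983. Enzymes of the sterol branch named here were higher in both 12 h libraries than in any 0 h library.

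Glycolysis and hypoxia genes showed no common direction, with 8 of 33 members down and 3 up by over 2-fold. Pdk1, a kinase that restrains pyruvate oxidation, had scores of 1634, 1306 and 1186 at 0 h and 147 and 141 at 12 h (log2 change -3.23, SE 0.60, adjusted p = 0.00052), and Egln3, an oxygen sensor, 107, 48 and 88 at 0 h and 659 and 466 at 12 h (log2 change 2.84, SE 0.34, adjusted p = 1.5e-05). Of 31 genes of the amino acid stress response 11 rose and 3 fell by over 2-fold. Chac1, a glutathione-degrading target of Atf4, had scores of 3, 4 and 56 at 0 h and 150 and 139 at 12 h, replicate 3 being the highest of 0 h. Atf3, counted here and among the immediate early genes, fell from 641, 1803 and 3264 to 298 and 321. Of 20 tRNA synthetases 13 rose and 0 fell, 1 of them, Rars, by over 2-fold. That count was 0 without 0 h replicate 3, with a pseudocount of 10 and with trimmed-mean scaling. In the antioxidant response 10 of 30 members rose and 0 fell by over 2-fold, and 1 fell without 0 h replicate 1 or 12 h replicate 1. Me1, malic enzyme, had scores of 131, 161 and 234 at 0 h and 3431 and 2782 at 12 h, and rose by 4.17 on the log2 scale (SE 0.28, adjusted p = 1.1e-07). Srxn1, sulfiredoxin, had scores of 246, 321 and 249 at 0 h and 1481 and 1565 at 12 h and Nqo1, a quinone reductase, 270, 371 and 275 at 0 h and 1390 and 1444 at 12 h, and both were close between the 12 h libraries. Fth1, the ferritin heavy chain, fell from 2632, 3477 and 4351 to 2140 and 1687.

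Few chaperone genes moved by over 2-fold, with 3 of 38 members up and 1 down. The number down was 0 without 12 h replicate 1 and 2 without 0 h replicate 2. The small heat shock proteins Hspb1 and Cryab rose, Hspb1 from 162, 40 and 109 to 1680 and 1597 and Cryab from 9, 14 and 14 to 193 and 174. Calr, the calcium-binding chaperone of the endoplasmic reticulum, fell from 23215, 25036 and 15608 to 9798 and 11073, a change at the 2-fold line. The stress-induced Hspa1a varied widely at 0 h, with scores of 4023, 567 and 5030 at 0 h and 738 and 1005 at 12 h, overlapped between the groups and did not pass (log2 change -1.39, SE 0.76, adjusted p = 0.14).

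Most ribosome biogenesis genes rose. Of 51 members 45 rose and 1 fell, against 29.9% and 28.3% of all transcripts, and 13 rose by over 2-fold (median log2 change 0.72). Rrp9, a protein of the U3 particle that processes ribosomal RNA, had scores of 836, 718 and 699 at 0 h and 1743 and 2080 at 12 h, and rose by 1.35 on the log2 scale (SE 0.12, adjusted p = 8.5e-07). Rrp12, a factor of subunit export, had scores of 1215, 1003 and 1031 at 0 h and 2441 and 2507 at 12 h (log2 change 1.20, SE 0.10, adjusted p = 6.6e-07). Polr1c, a subunit shared by RNA polymerases I and III, was the member that fell, from 2937, 2839 and 2241 to 1623 and 2142, and it did not pass without 12 h replicate 1 (adjusted p = 0.19).

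Of 76 mitochondrial ribosomal proteins 36 rose and 4 fell, against 29.9% and 28.3% of all transcripts. By over 2-fold 2 of the 76 rose (1 without 12 h replicate 2), below the 12.1% of all transcripts. The number that rose was 24 without 12 h replicate 2, and also 24 in the fit of the 5 libraries of 0 h and 12 h. The number that fell was 0 without 12 h replicate 1, 2 without 0 h replicate 2 and 7 without 0 h replicate 3. Mrps18b went from 224, 240 and 230 to 924 and 1052. The translation initiation list had 22 of 53 members up and 8 down (5 down without 0 h replicate 2 or without 12 h replicate 1), with Eif4ebp1, the repressor 4E-BP1, rising from 572, 505 and 545 to 1623 and 1477 and Eif4b falling from 24980, 24980 and 24980 to 10055 and 10055. Only 7 cytosolic ribosomal proteins are listed in the table, too few to stand for the ribosome, and 4 of them fell, 1 of them without 12 h replicate 1. Proteasome subunits rose in 19 of 35 members and fell in 0, with 0 beyond 2-fold. In the fit of the 5 libraries 9 rose, and without 12 h replicate 2, 6 rose and 2 fell. The number that fell was 1 without 0 h replicate 3, and 1 rose by over 2-fold without 0 h replicate 1 or 2. Oxidative phosphorylation subunits had 22 of 77 members down, near the share over all transcripts, and 4 up. Of these subunits 14 fell without 12 h replicate 1, and without 12 h replicate 2, 0 h replicate 2 or 0 h replicate 3, 2 rose.

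Splicing factors fell in 15 of 51 members and rose in 7, with 2 and 1 beyond 2-fold. The fit of the 5 libraries of 0 h and 12 h gave 2 splicing factors rising, and without 0 h replicate 2 or 12 h replicate 1, 0 rose by over 2-fold. Chromatin modifiers fell in 20 of 48 members and rose in 5, with 4 beyond 2-fold each way. The number of chromatin modifiers that fell was 11 without 12 h replicate 2, and the fit of the 5 libraries gave 13. Beyond 2-fold 8 fell and 2 rose without 12 h replicate 1, and 2 rose without 0 h replicate 2. Smarca2, a motor subunit of the SWI/SNF remodelling complex, had scores of 5399, 4599 and 5179 at 0 h and 844 and 842 at 12 h (log2 change -2.58, SE 0.13, adjusted p = 7.5e-09). Hmga2 and Hmga1, architectural proteins abundant in embryonic cells, rose, Hmga2 from 2129, 1840 and 2334 to 13025 and 8138 and Hmga1 from 1454, 894 and 1417 to 4570 and 4270. Jarid2, a partner of the Polycomb complex PRC2, fell from 1343, 1685 and 1710 to 478 and 423. Genes named Zfp with a number, most of them zinc finger factors, moved by over 2-fold in 19 of 323 members upwards and 19 downwards, below the 12.1% and 12% over all transcripts. Among 29 lysosome genes 12 fell and 7 rose, 2 beyond 2-fold each way. The number of lysosome genes that fell was 5 without 12 h replicate 1, without replicate 2 of either group 7 fell, and without 12 h replicate 2, 4 rose.

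Circadian clock genes fell in 8 of 16 members and rose in 4, with 7 and 2 beyond 2-fold. The output factors Tef and Dbp fell, Tef from 1906, 2177 and 2338 to 380 and 362 (log2 change -2.52, SE 0.20, adjusted p = 3.5e-07) and Dbp from 133, 115 and 133 to 23 and 28. Arntl, which encodes the activator Bmal1, rose from 165, 226 and 200 to 654 and 639 (log2 change 1.72, SE 0.16, adjusted p = 2.1e-06). Activator and output genes therefore moved in opposite directions, in 2 groups whose time of day is not given in the sources used here. The repressor Per2 fell from 80, 222 and 544 to 80 and 45, with overlap, and did not pass without 0 h replicate 3 (adjusted p = 0.12), 0 h replicate 2 (adjusted p = 0.067) or 12 h replicate 2 (adjusted p = 0.19). The number of clock genes that fell was 5 without 12 h replicate 2, 4 of them by over 2-fold, and 1 rose by over 2-fold without 0 h replicate 2 or without 12 h replicate 1.

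Of the named genes 194 changed by over 2-fold in the first 12 h. In the next 12 h, 12 of these moved further in the same direction by over 2-fold and 6 moved back. Over all transcripts 2.41% changed by over 2-fold in that interval, and many named genes were chosen for large changes in the first 12 h. A fit of only the 5 libraries of 12 h and 24 h gave 81 transcripts upwards and 26 downwards, against 171 and 120. The comparison of 24 h with 12 h shares the 12 h libraries with the comparison above, so values are only set side by side. Fosl1 had a mean score of 558 at 12 h and of 585 at 24 h, and Bmp4 of 4794 and 5474, and neither difference passed (adjusted p = 0.91 and 0.43). Gli1 fell further, from a mean of 23 to 4.67 (log2 change -2.27, adjusted p = 0.032), as did Ptch1 (log2 change -1.02, adjusted p = 0.0092). Grem1 rose further, from 4902 to 13121 (log2 change 1.42, adjusted p = 0.0033), and so did Cdkn1a (log2 change 1.71, adjusted p = 0.0062). The clearest return was that of Tap1, a peptide transporter of antigen presentation counted among the p53 targets, which fell from 171, 352 and 320 to 35 and 48 in the first 12 h and rose by 2.92 in the next (adjusted p = 7.1e-05).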

How the data were processed

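RNA was extracted from the libraries described above with the RNeasy kit and sequenced after TruSeq library preparation. Per the labels and the methods of the study, reads were trimmed, aligned to the mouse transcriptome (mm10, Ensembl) with bowtie and quantified with RSEM. The labels name RSEM version 1.1.21, and the methods of the study name another version. The authors deposited 1 table of 12089 transcripts as scores, whole numbers that share one distribution over the 15 libraries (totals 21357605 to 21365980). The file is named for cpm, which these totals do not allow, so the unit was treated as a score. The normalization step is not given in the sources used here, and depth is unknown. Low-expressed transcripts had been left out, and the listed transcript need not be the main isoform of its gene.

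Transcripts were matched to GENCODE M21 (GRCm38), 11973 of them to 11960 genes. A linear model with a separate mean for every time point was fitted to log2(score + 1) of the 14 mDMC libraries in limma 3.58.1 (R 4.3.3), and variances were moderated with a trend on intensity. It covered the 12079 transcripts that reached 1 ppm of their library's total in 2 or more libraries. The tissue stayed outside the fit. A change needed a Benjamini-Hochberg adjusted p below 0.05 and a fold above 2. On simulated data with 200 changed genes limma recovered 183 and called 1 of 11879 unchanged genes. The simulation drew noise independently for each gene and left most genes unchanged, unlike these data. It checks the procedure and gives no rate of false calls for the counts above.

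Counts for a gene list take 1 transcript per gene. The genes and the lists were chosen with earlier results of these data known. Named are the 12 largest rises and falls without a score of 0 and without overlap, the 4 strongest changes of every list among members that passed, the extremes of a list, and all dental mesenchyme genes. Jun, Junb, Jund, Egr1 and Mmp13 were named after their values were seen. Promoters come from RefSeq (GRCm38.p6), and the 7352 tested genes with 1 window were searched. Alternatives changed the pseudocount, filter, scaling, fitted libraries, replicate block, spread model and each replicate. Python 3.11.15 with pandas 2.3.3 and matplotlib 3.10.9 was used for counts and plots. Some members of the lists are not reported here by name.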

Additional observations from a re-analysis of the deposited data

How the results depend on the processing

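The number of transcripts that rose by over 2-fold from 0 h to 12 h was 1462 and lay between 1157 and 1531 over all alternatives, and the number that fell was 1444 and lay between 1118 and 1494. Leaving out 1 library gave 1373 to 1531 rising and 1397 to 1452 falling. Where 1 library of 12 h is left, it is assumed to vary like the other groups. With 0 h replicate 3 and 12 h replicate 1 both left out, chosen after the data were seen, 1364 rose and 1353 fell. The groups share 2 replicate numbers, too few to pair the libraries: the deviations of 0 h and 12 h correlated at -0.25 for number 1 and 0.318 for number 2, and at 0.477 between 0 h replicate 3 and 12 h replicate 1. With the replicate number as a block 1477 transcripts rose and 1475 fell. From 12 h to 24 h the counts rested on the shared spread: against 171 rising and 120 falling, a fit of only the 5 libraries of these times gave 81 and 26, and an unadjusted p gave 228 falling. Trimmed-mean scaling moved the median change by -0.0275.

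Among the named genes, changes of sign were limited to 5 that did not pass the test. With 1 library left out, the log2 change ranged from -0.26 to 0.21 for Prrx1, from -0.11 to 0.41 for Osr1, from -0.16 to 0.23 for Foxf2, from -0.18 to 1.21 for Sox9 and from -1.01 to 0.29 for Myh3. Prrx1 had 0.090 with the replicate block, and without 0 h replicate 3 and 12 h replicate 1 Osr1 had -0.068 and Foxf2 -0.073. The cause was not tested. Of the 245 named genes, 22 lost the adjusted p with both libraries left out, 20 without 12 h replicate 1 and 12 in the fit of 5 libraries.

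A filter of 1 ppm in all 5 libraries leaves out members near 0 in either group. Counts over 2-fold then went from 10 to 5 for falling red cell markers, from 4 to 2 for falling pericyte markers, hedgehog genes and oxidative phosphorylation subunits and for rising G1 regulators, from 5 to 3 for rising Wnt and skeletal development genes, from 7 to 3 for falling Notch genes and from 2 to 1 for rising imprinted and clock genes. The rising skeletal muscle markers, Des and Acta1, went from 2 to 0, and the falling glial marker, S100b, from 1 to 0. With 1 ppm in all 14 libraries 0 red cell and 6 of 12 falling endothelial markers were left.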
